A study of Mus musculus with 5 samples.

Results

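Satellite glia are the flat cells that wrap each sensory neuron of a ganglion, and 249 of the 3352 cells of the deposited data carried that name. They were chosen by the cell type that the authors assigned to each cell, with no further selection. The cells came from lumbar dorsal root ganglia (DRG), the clusters of sensory nerve cell bodies beside the spinal cord, of untreated wild-type C57BL/6 mice, 3 males and 2 females aged 18 weeks. Ganglia were dissociated with collagenase P and trypsin at 37 °C, cleaned on a Percoll gradient and captured in droplets with a Chromium 3′ kit, which counts 1 end of each captured transcript by its unique molecular identifier (UMI). All mice belonged to 1 condition, so glia were compared with the 3047 neurons of 12 types and the 56 endothelial cells of the same libraries. The cell names carried 5 library identifiers that no sample label names. Each library was taken as 1 mouse, and the libraries were numbered 1 to 5 from the fewest to the most cells.

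A ring of satellite glia shares the neuron's surroundings. These cells take up potassium and transmitter, are joined to each other by gap junctions, and supply lipids and trophic signals. They arise from the neural crest, as Schwann cells do, and carry many of the same genes, so the line between both glial kinds in a ganglion is drawn by levels of myelin and lipid genes rather than by 1 marker alone.

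Glia numbered 19 of 164 cells in library 1, 80 of 474 in library 2, 53 of 539 in library 3, 75 of 805 in library 4 and 22 of 1370 in library 5. Their share was 11.6% (95% Clopper-Pearson interval 7.12 to 17.5), 16.9% (13.6 to 20.6), 9.83% (7.45 to 12.7), 9.32% (7.40 to 11.5) and 1.61% (1.01 to 2.42) in that order. The mean was 9.84% ± 5.49 (SD, n = 5), and the interval of library 5 lay below those of the other libraries. These intervals cover counting error only. Of 7 cell barcodes found in 2 libraries, 0 were on glia.

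Glia lay close to a lower limit on UMIs, as endothelial cells did. The smallest cell of any class held 17068 UMIs in library 1, 13784 in library 2, 16752 in library 3, 13103 in library 4 and 13427 in library 5, and in libraries 1 to 4 that cell was glial. The median glial cell held 20118, 17407, 21151, 16511 and 15526 UMIs in libraries 1 to 5, and the highest glial cell 31225. Of the glia, 216 (86.7%) held less than 1.5 times the smallest cell of their library, against 55 of 56 endothelial cells (98.2%) and 114 of 3047 neurons (3.74%). Cells below these limits were not analysed here, so the shares of glia above are shares of cells over that limit. The part of this limit in the shares was not tested.

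**Figure D1:**
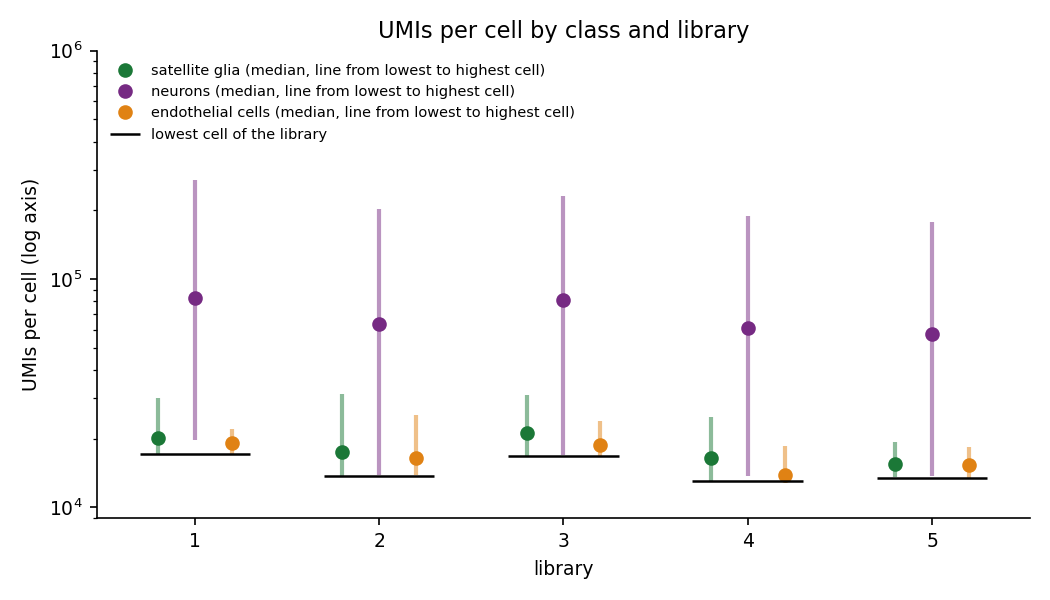
UMIs per cell (log axis) by library for satellite glia, neurons and endothelial cells. Points are medians, vertical lines run from the lowest to the highest cell, and the black bar is the lowest cell of the library. Glia and endothelial cells sit just above the black bar in all 5 libraries, while the neuron medians lie between 57409 and 82821.

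Glia held 3.79-fold fewer UMIs per cell than neurons. The log2 ratio of the medians was -2.04, -1.86, -1.93, -1.89 and -1.89 in libraries 1 to 5, with a mean of -1.92 ± 0.07 (SD, n = 5; exact two-sided sign-flip test over libraries, p = 0.063, the smallest that 5 libraries allow). Against endothelial cells the same ratio was 0.07, 0.08, 0.18, 0.25 and 0.02, with a mean of 0.12 ± 0.09 (SD, n = 5; exact sign-flip p = 0.063). The ratio rests on glia and endothelial cells that lie at the UMI limit. Fewer genes were also detected in glia than in neurons at equal depth. With every cell thinned to 5000 UMIs, the median glial cell showed 1838, 1850, 1921, 1886 and 1964 genes in libraries 1 to 5, and the median neuron 2121, 2120, 2122, 2110 and 2108. The difference of -224 ± 55.8 genes (SD, n = 5; exact sign-flip p = 0.063) was negative in 5 of 5 libraries. The median endothelial cell showed 1777, 1774, 1804, 1822 and 1835 genes, below glia in 5 of 5 libraries, a difference that was not tested.

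Markers of satellite glia were high in the class. That describes the name and is no test of it, since the authors named cell types by marker genes of these same counts. Apoe, the lipoprotein that carries lipid between cells, took 91605, 77927, 69981, 84347 and 70721 counts per 1000000 UMIs (CPM) of the glia of libraries 1 to 5, which is 7.89% of all glial UMIs on average. Fabp7, a fatty acid binding protein of glia, was at 8770, 7158, 6366, 10461 and 7078 CPM. Kcnj10, the inward rectifier potassium channel Kir4.1, was at 202, 146, 252, 237 and 217 CPM. No glial library overlapped a neuronal or endothelial one for any of these 3 genes. On mm10 (GRCm38, GENCODE M21) they lie at chr7:19696109-19699188 on the minus strand, chr10:57784881-57788450 on the plus strand and chr1:172341210-172374085 on the plus strand.

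Because cell types were clustered on these same counts, the genes of glia are described against the other classes with no p-value for a gene. A gene was called higher or lower where its UMIs, summed per library, differed at least 2-fold with an adjusted p under 0.01 in edgeR's quasi-likelihood fit. This states the size of a difference against the spread between libraries. Against neurons, 2620 of 12109 genes (21.6%) were called higher in glia and 3944 (32.6%) lower, and the median log2 fold change of all genes was -0.35. Against endothelial cells, 901 of 4046 genes (22.3%) were called higher and 869 (21.5%) lower, with a median of 0.05. Genes pass the filter on low counts mainly through the class in which they are high, so counts of members are to be read against these shares.

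Of the 12 satellite glia markers, 11 were called higher than in neurons, with a median log2 fold change of 8.98, and 9 of 11 tested were called higher than in endothelial cells. The mean level was 78916 ± 9199 CPM (SD, n = 5) for Apoe against 157 ± 65.7 in neurons and 3971 ± 5013 in endothelial cells. Fbln5, an extracellular matrix protein, was at 706, 667, 651, 801 and 820 CPM, with a log2 fold change over neurons of 9.36 (SE 0.24). Slc1a3, the glutamate transporter GLAST, was at 55.5, 68.6, 92.6, 90.3 and 83.7 CPM, and Ptprz1, a receptor phosphatase, at 224, 237, 248, 223 and 179. Sox10, the transcription factor of neural crest glia, varied most among the markers, at 202, 92.9, 227, 44.3 and 113 CPM, yet its highest neuronal library was at 0.482.

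S100b, Glul, Gja1 and Cdh19 stood apart from the other markers. S100b, a calcium binding protein, was at 779, 813, 849, 1037 and 858 CPM in glia and at 707 ± 208 (SD, n = 5) in neurons, with overlapping libraries and a log2 fold change of 0.47 (SE 0.16). It was called higher than in endothelial cells, by 2.37 (SE 0.29) on the log2 scale. Glul, which makes glutamine from glutamate, was called higher than in neurons by 2.44 (SE 0.12) but lower than in endothelial cells, which held 1052 ± 124 CPM against 539 ± 94.6 in glia (SD, n = 5). That log2 fold change of -1.11 fell short of 2-fold without library 2 (-0.87), without a Schwann-like cluster of the glia (-0.87) and with no filter on low counts (-0.81). Gja1, the gap junction protein connexin 43, was at 141, 107, 95.3, 99.0 and 136 CPM in glia and overlapped the endothelial range of 73.9 to 255. Cdh19, a cadherin of glial precursors, was called higher than in neurons but had a UMI in 15.3% of glia, at a mean of 8.66 ± 3.65 CPM (SD, n = 5).

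**Figure D2:**
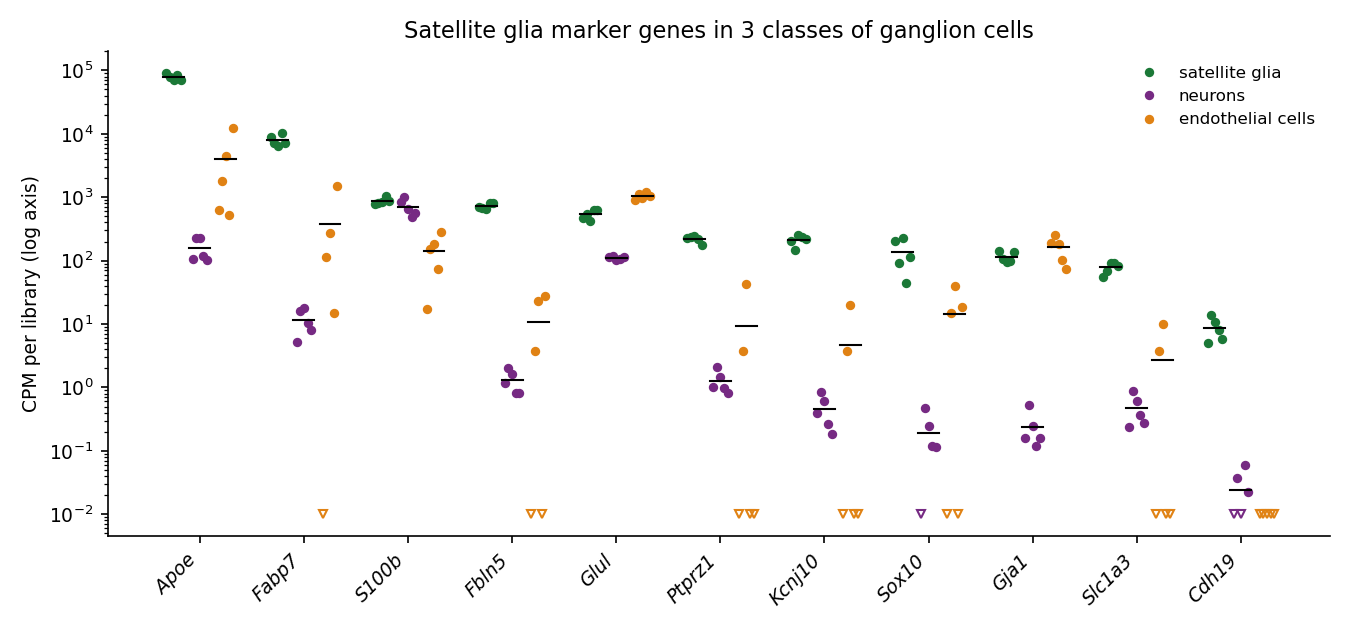
CPM per library (log axis) of 11 satellite glia markers in satellite glia, neurons and endothelial cells. Points are the 5 libraries, black bars are means, and open triangles at the foot mark libraries at 0. Glia stand above neurons for every gene but S100b, and endothelial cells reach or pass glia for Glul and Gja1.

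At an equal 5000 UMIs per cell, 100% of glia had a UMI of Apoe, 54.6% of Kcnj10 and 92.8% of Fbln5. In neurons the shares were 25.7%, 0.263% and 0.459%. In endothelial cells they were 91.1%, 0% and 3.57%. With all UMIs kept, at a median of 17729 UMIs in glia and 16889 in endothelial cells, Kcnj10 was found in 92.0% of glia and 5.36% of endothelial cells. The Apoe of endothelial cells was uneven, at 635, 1791, 4409, 526 and 12491 CPM in libraries 1 to 5, and the endothelial sum of library 5 rests on 7 cells.

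The most abundant transcripts of glia were dominated by few genes. The 10 with the highest share, ribosomal and mitochondrial genes left out, took 19.3% of glial UMIs and 1.78% of neuronal ones. After Apoe came the nuclear RNA Malat1 with 5.99%, Dbi with 1.34%, the metallothionein Mt1 with 1.07% and Fabp7 with 0.797%. Vim, Sparc, Mt2, Itm2b and Cst3 followed, between 0.494% and 0.422%. Dbi, the acyl-CoA and diazepam binding protein, was at 14095, 12729, 12720, 14686 and 12868 CPM. Mt1, Sparc and Malat1 were not called against endothelial cells, whose means were 13117, 3726 and 62816 CPM, and Mt2 was called lower in glia than in these cells, at 4536 ± 880 against 8487 ± 1659 (SD, n = 5). The log2 fold change of Mt2 of -1.03 was close to the 2-fold limit, and the call was lost without library 2 (-0.86), library 3 (-0.99) or library 4 (-0.91), without the Schwann-like cluster (-0.94), in DESeq2 (-0.93) and with no filter (-0.73).

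Among genes at 100 CPM or more, the 10 with the largest folds over neurons were of mixed function. Sostdc1, a secreted BMP and Wnt antagonist, led with 789, 887, 757, 972 and 1008 CPM against a neuronal mean of 1.02, a log2 fold change of 9.89 (SE 0.26). Serpine2, a protease inhibitor made by glia, followed at 9.83 (SE 0.21), with 1248, 1018, 865, 1207 and 1210 CPM. Sox10, Acsbg1, Fabp7, Aspa, Gpr37l1, Postn and Paqr6 were also among the first 10, between 9.60 and 9.40. Acsbg1 activates fatty acids, Aspa cleaves N-acetylaspartate, and Gpr37l1 is a receptor of astrocytes and satellite glia. All 10 were also called higher than in endothelial cells.

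Genes of potassium handling and coupling split in direction. Of 13 tested members, 9 were called higher than in neurons and 3 lower. Atp1b2, a beta subunit of the sodium pump, was at 242, 211, 214, 243 and 144 CPM, with a log2 fold change of 7.74 (SE 0.23). Another beta subunit, Atp1b1, went the other way, at 167 ± 36.9 CPM in glia and 965 ± 104 in neurons (SD, n = 5), a log2 fold change of -2.34 (SE 0.15). Over the whole list, glia held 21.1 ± 1.10 UMIs per 10000 and neurons 19.5 ± 4.43 (SD, n = 5), so the sum did not separate the classes while its members did. Kcnk1, a 2-pore potassium channel, was also called lower, with a log2 fold change of -1.70 (SE 0.19).

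Slc12a2, the sodium-potassium-chloride importer NKCC1, was at 189, 211, 251, 190 and 205 CPM against 27.2 ± 1.97 in neurons (SD, n = 5). The water channel Aqp4 was at 73.1, 43.7, 37.4, 69.7 and 31.8 CPM and had a UMI in 48.2% of glia but 0 UMIs in endothelial cells. Kcnj16, which pairs with Kcnj10 in heteromeric channels, was at 37.8, 21.5, 25.8, 28.5 and 8.66 CPM. Panx1, a large-pore channel, did not separate glia from neurons, at 112 ± 25.0 against 113 ± 16.0 CPM (SD, n = 5).

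For glutamate and GABA handling, 7 of 9 tested genes were called higher than in neurons and 1 lower. Beside Glul and Slc1a3, the GABA transaminase Abat was at 42.9, 43.0, 53.4, 58.6 and 60.6 CPM, a log2 fold change of 2.15 (SE 0.16). The GABA transporter Slc6a11 was low in glia, at 5.04, 12.5, 17.8, 18.2 and 20.2 CPM, and was close to 0 in neurons. Slc38a3, a glutamine transporter on the list, was not analysed here.

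Lipid carriers and fatty acid genes held the highest sum of the lists, with Apoe among them. The 17 genes summed to 1181, 1012, 937, 1144 and 944 UMIs per 10000 in libraries 1 to 5, against 15.9 to 21.9 in neurons. Of 15 tested, 9 were called higher than in neurons and 3 lower, and 11 of 13 were called higher than in endothelial cells. Fabp5 was at 1238, 1204, 1428, 1584 and 1016 CPM, and the stearoyl-CoA desaturase Scd2 at 1109, 944, 1527, 1316 and 1236. Their log2 fold changes over neurons were 1.76 (SE 0.13) and 1.82 (SE 0.13), and over endothelial cells 3.98 (SE 0.35) and 3.99 (SE 0.40). Clu and Fabp3 were called lower than in neurons, and so was Lpl, whose glial mean was 0.475 CPM and whose call was lost without library 1, 2, 3 or 5 (-2.16 to -1.58), without the tenth of glia with most neuronal UMIs (-2.11) and without the Schwann-like cluster (-2.01). Clu, another apolipoprotein, was at 42.9 ± 10.9 CPM in glia and 181 ± 67.2 in neurons (SD, n = 5).

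The cholesterol pathway was higher in glia across most of its length. Its 18 enzymes summed to 60.9, 64.4, 49.6, 73.0 and 57.3 UMIs per 10000 in glia, 27.3 ± 0.605 in neurons (SD, n = 5) and 1.37 to 10.8 in endothelial cells. Against neurons, 11 of 18 were called higher and 1 lower, with a median log2 fold change of 1.41. Against endothelial cells, 17 of 18 were called higher, with a median of 3.65, and the exception was Ebp. Cyp51, the lanosterol demethylase, stood out against neurons, at 582, 559, 432, 643 and 482 CPM and a log2 fold change of 3.56 (SE 0.15). Hmgcs1, an early enzyme of the pathway, was at 676, 662, 633, 788 and 719 (1.62, SE 0.11). Fdps, which makes farnesyl diphosphate, was the most abundant, at 1417, 1540, 1090, 1553 and 1172 CPM (1.07, SE 0.13). Its call was lost at the 2-fold limit without library 1 (1.00) or library 2 (0.99) and with no filter (0.96).

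Mvk, mevalonate kinase, was at 51.2 ± 14.6 CPM in glia and 87.7 ± 6.13 in neurons (SD, n = 5) and was not called.

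**Figure D3:**
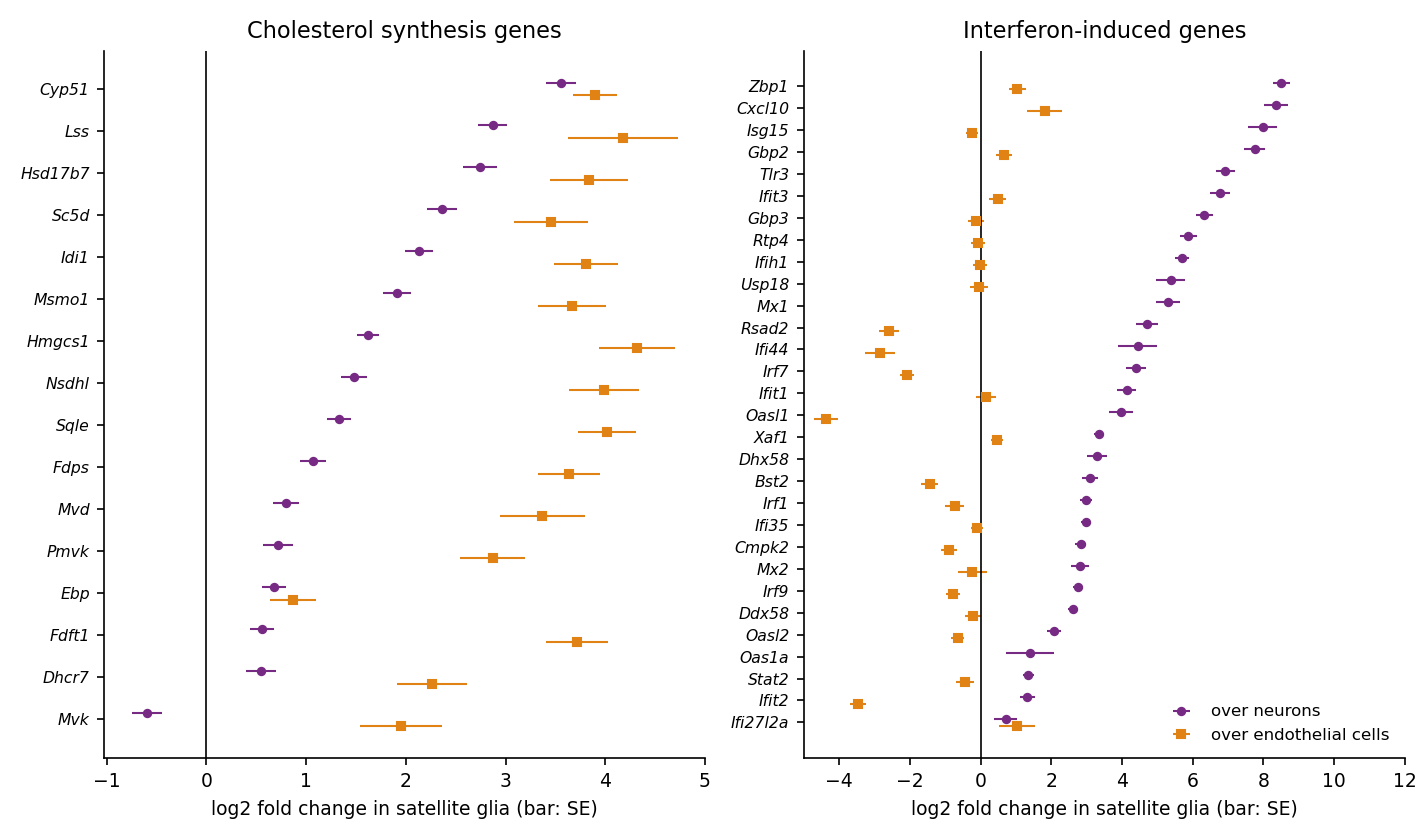
Log2 fold change of satellite glia over neurons (circles) and over endothelial cells (squares) for most tested cholesterol synthesis and interferon-induced genes, ordered by the fold over neurons. Bars are SEs of the edgeR fit over 5 libraries. Cholesterol genes lie further from endothelial cells than from neurons, with Mvk below neurons, while interferon-induced genes lie far above neurons and on both sides of endothelial cells.

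Among transcription factors of the glial lineage, 10 of 11 tested were called higher than in neurons, and Hes1 was not called. The Hey1 call was lost without library 1 (1.00) or library 2 (0.93), with no filter (0.98) and with neuronal types scaled equally (0.91). Sox2, which keeps glial precursors undifferentiated, was at 214, 176, 231, 137 and 144 CPM, against 0.357 ± 0.359 in neurons (SD, n = 5). Zeb2, a regulator of Schwann cell differentiation, was at 98.3, 128, 166, 96.6 and 156 CPM, a log2 fold change of 2.72 (SE 0.17). The nuclear factor Nfia was at 85.7, 90.8, 159, 148 and 162 CPM (1.25, SE 0.20). Sox9 was all but absent, at 0, 0, 3.56, 3.96 and 0 CPM. Olig1 and Hes5 were not analysed here. Of 8 tested against endothelial cells, 5 were called higher in glia and 2, Nfib and Hes1, lower. Among the 5, Nfia lost its call without library 4 (0.89). The list summed to 6.72 to 11.8 UMIs per 10000 in glia and 6.26 to 13.7 in endothelial cells. Its sum thus did not separate glia from endothelial cells.

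Secreted ligands were low in level. Of 14 tested, 9 were called higher than in neurons and 3, Bdnf, Nrg1 and Pdgfa, lower. Dhh, the desert hedgehog signal of Schwann cells, was the exception in level, at 129, 154, 168, 190 and 173 CPM, with a UMI in 90.0% of glia. It was called higher than in both other classes, by 5.63 (SE 0.17) and 4.73 (SE 0.33) on the log2 scale. Gdnf was at 10.1, 10.4, 13.4, 3.96 and 28.9 CPM, Csf1 at 20.2, 27.0, 25.8, 29.3 and 23.1, and Clcf1 at 22.7, 17.3, 49.0, 12.7 and 23.1. Ntf3, Ntf5 and Pdgfb had 0 UMIs in glia, and Cntf was not analysed here.

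The summed level of receptors separated glia from both other classes, though single members went both ways. Their sum was 28.4, 25.9, 30.1, 27.8 and 26.6 UMIs per 10000, against 5.34 to 6.54 in neurons and 11.5 to 15.6 in endothelial cells. Of 17 tested, 12 were called higher than in neurons and 3 lower. Among the 12, the Il1r1 call was lost in 6 alternative settings, 1 of them with neuronal types scaled equally (0.56). Against endothelial cells, 6 of 11 tested were called higher and 4 lower (Notch1, Lifr, Osmr and Tnfrsf1a). Of these 4, Osmr lost its call in 6 alternative settings and Lifr in 4. Lpar1, a lysophosphatidic acid receptor, was at 638, 598, 634, 793 and 676 CPM, and Ntrk2, the BDNF receptor TrkB, at 646, 549, 536, 634 and 531. Ednrb, an endothelin receptor, was at 593, 510, 653, 465 and 531 CPM and S1pr3, a sphingosine phosphate receptor, at 315, 346, 443, 301 and 309. These 4 were called higher than in both other classes, and their glial libraries lay above every neuronal and endothelial one. Among purinergic receptors, P2ry12 was at 26.7 ± 7.62 CPM (SD, n = 5) with a neuronal mean of 0.0696, and the log2 fold change of P2rx7 over neurons was 8.35 (SE 0.34). Notch1 was higher in glia than in neurons and lower than in endothelial cells, at 128 ± 20.8 CPM against 361 ± 98.1 in the latter (SD, n = 5). Ntrk3, Gfra3 and Lifr were called lower than in neurons, and Erbb3 was not analysed here.

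All 15 matrix and basal lamina genes were called higher than in neurons, where the list summed to 0.543 to 1.11 UMIs per 10000. Glia held 73.7 in library 2 and 82.7 to 83.3 in the other libraries, and endothelial cells 59.2 to 80.2, so the ranges overlapped through library 2. Sparc, a collagen binding glycoprotein, was at 4826, 4224, 4488, 4720 and 4522 CPM in glia and 3726 ± 681 in endothelial cells (SD, n = 5). Timp3 and Sparcl1 were not called between these classes. Of 14 tested, Lamb1, Nid1, Fbln2 and Fbln5 were called higher than in endothelial cells, and the type IV collagens Col4a1 and Col4a2, with Lamb2 and Hspg2, lower. The Hspg2 call was lost without library 1 (-1.10) or library 2 (-0.71) and with no filter (-0.89). Of 14 adhesion genes, 6 were called higher than in neurons and 4 lower. Ncam1, the neural cell adhesion molecule, was at 429, 374, 473, 473 and 523 CPM (2.14 over neurons, SE 0.12), and Dag1, the laminin receptor dystroglycan, at 182, 205, 384, 223 and 289 (4.09, SE 0.18).

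**Figure D4:**
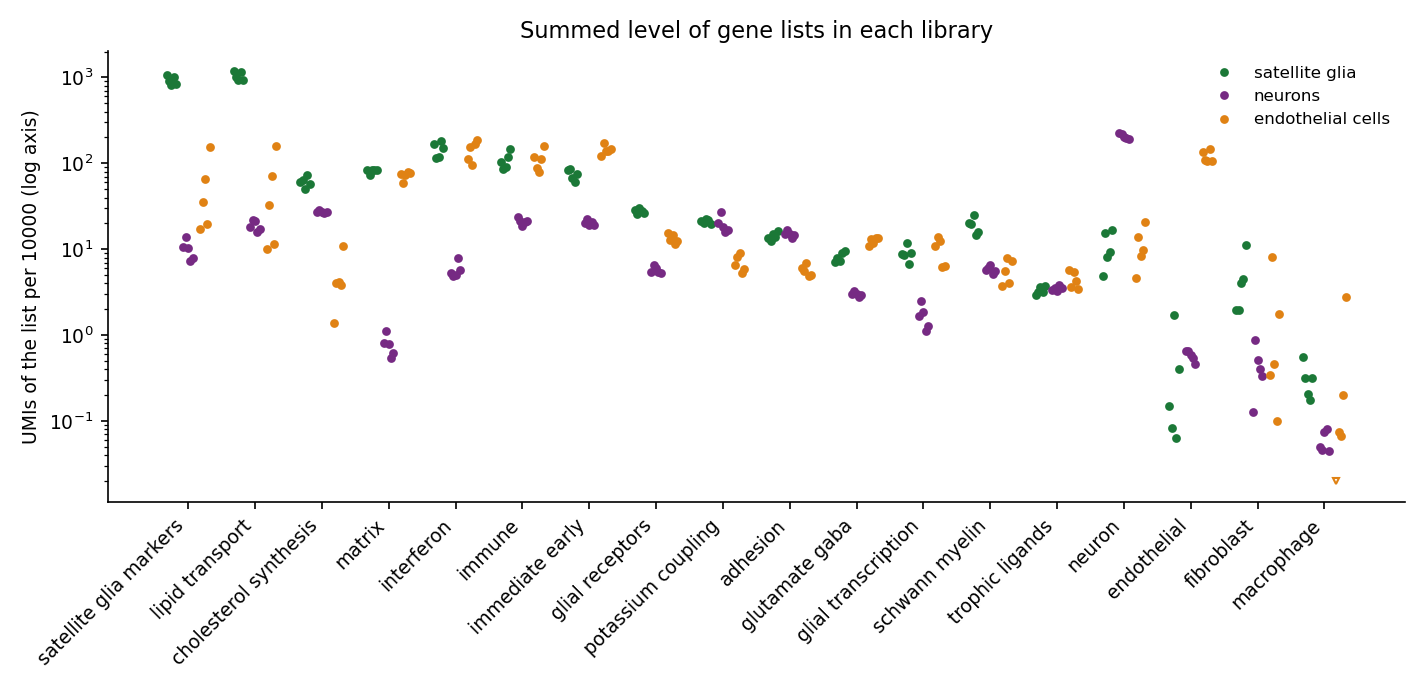
Summed UMIs per 10000 (log axis) of 18 gene lists in satellite glia, neurons and endothelial cells, 1 point per library. An open triangle marks a library at 0. Glia lie above both other classes for satellite markers, lipid transport, cholesterol synthesis, glial receptors and myelin genes, and overlap endothelial cells for matrix, interferon-induced and immune genes.

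Immune and interferon-induced genes were high in glia of all 5 libraries. The class I subunit B2m was at 3893, 2747, 3286, 3791 and 5409 CPM and the monocyte attractant Ccl2 at 1503, 1405, 1285, 2516 and 2509. Of 13 immune genes tested, 11 were called higher than in neurons. Of 10 tested against endothelial cells, 2 (Ccl2 and Cd9) were called higher and 2 (H2-K1 and Cx3cl1) lower. That is near the shares of all genes, 22.3% and 21.5%. H2-K1 and H2-D1 are distinct class I genes of similar sequence, so some reads may be split between them.

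Interferons induce a set of antiviral genes through a complex of transcription factors that binds the element ISRE in their promoters. A list of 33 such genes was chosen after their values were seen. It summed to 168, 115, 120, 184 and 149 UMIs per 10000 in glia, 112, 153, 95.9, 166 and 186 in endothelial cells and 4.92 to 7.89 in neurons. Isg15, a ubiquitin-like modifier, was at 3112, 2093, 1996, 2684 and 2310 CPM. Cxcl10, a T cell attractant, was at 2438, 2214, 2764, 4259 and 2177, and Gbp2, a guanylate binding GTPase, at 2216, 1380, 1264, 1460 and 1187. Ifit3, which shares sequence with a near-identical copy, was at 2186, 1339, 1305, 2463 and 2391. Each of these 4 lay above all neuronal libraries, whose means were 10.4, 9.77, 7.93 and 19.4 CPM.

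Of 31 tested, 29 were called higher than in neurons and 0 lower. Against endothelial cells, 3 of 27 were called higher (Cxcl10 and Zbp1 among them) and 6 lower (Ifit2, Rsad2, Oasl1, Irf7, Bst2 and Ifi44). The Cxcl10 call was lost without library 3 (1.57) and in DESeq2 (1.93), and the Zbp1 call without library 1 (0.97) or library 3 (0.83). Rsad2, the antiviral enzyme viperin, was at 343, 160, 267, 579 and 442 CPM in glia and 1356 to 2443 in endothelial cells. Of the receptor chains, also listed after values were seen, Ifnar2 and Ifngr1 were called higher than in neurons, with log2 fold changes of 1.94 and 2.27, and Ifnar1 and Ifngr2 lower, with -1.79 and -1.66. Within glia the list ranged from 8.04 to 508 UMIs per 10000 over single cells, with a median of 121. Cxcl10 was at 0 in 11 of 249 cells and reached 175 UMIs per 10000 in 1.

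The promoters of 4 of these genes are shown because they carry the ISRE letters and because their genes were among the highest of the list. Each runs from 250 bases before to 50 after the transcript start (RefSeq, GRCm38.p6), 5′ to 3′ along the gene, with capitals marking GAAANNGAAA on either strand.

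Isg15 promoter, chr4:156200769-156201068, minus strand: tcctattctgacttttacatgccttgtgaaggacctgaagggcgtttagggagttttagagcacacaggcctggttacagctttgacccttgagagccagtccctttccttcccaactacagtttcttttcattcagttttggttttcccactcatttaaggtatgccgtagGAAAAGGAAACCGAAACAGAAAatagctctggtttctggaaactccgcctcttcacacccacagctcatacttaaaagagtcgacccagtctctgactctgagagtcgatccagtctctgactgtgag
Ifit3 promoter, chr19:34583279-34583578, plus strand: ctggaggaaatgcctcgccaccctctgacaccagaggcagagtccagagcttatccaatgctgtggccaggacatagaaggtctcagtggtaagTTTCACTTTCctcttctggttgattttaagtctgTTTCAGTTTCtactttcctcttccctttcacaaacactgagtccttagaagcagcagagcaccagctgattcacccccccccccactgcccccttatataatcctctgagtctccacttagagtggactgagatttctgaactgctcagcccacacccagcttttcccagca
Cxcl10 promoter, chr5:92348840-92349139, minus strand: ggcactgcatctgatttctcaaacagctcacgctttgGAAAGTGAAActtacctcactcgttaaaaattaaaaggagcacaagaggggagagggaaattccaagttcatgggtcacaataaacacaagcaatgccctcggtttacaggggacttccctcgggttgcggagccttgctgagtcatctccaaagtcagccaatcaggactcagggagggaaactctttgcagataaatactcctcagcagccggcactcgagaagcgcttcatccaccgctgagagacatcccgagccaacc
Gbp2 promoter, chr3:142620413-142620712, plus strand: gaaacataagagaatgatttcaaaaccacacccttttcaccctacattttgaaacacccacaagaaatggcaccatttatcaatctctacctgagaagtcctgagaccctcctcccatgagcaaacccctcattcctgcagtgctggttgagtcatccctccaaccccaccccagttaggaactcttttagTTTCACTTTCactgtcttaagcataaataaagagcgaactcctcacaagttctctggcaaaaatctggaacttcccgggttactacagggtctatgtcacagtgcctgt

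In Isg15, overlapping matches run together, and Ifit3 holds 2 separate matches. Of the 33 listed genes, 24 had a promoter in the table, and 13 of these held the letters, against 1079 of 27025 genes (3.99%) overall. Of 13 cholesterol genes with a promoter, 1 (Hmgcs1) held the sterol element letters TCACNCCAC, which 1.44% of all genes did. A match is a description of letters and not a bound site.

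Immediate early and stress genes were high in glia and higher still in endothelial cells. The 16 genes summed to 83.9, 86.4, 67.0, 61.0 and 74.6 UMIs per 10000 in glia, 19.1 to 22.3 in neurons and 121 to 171 in endothelial cells. Of 16, 15 were called higher than in neurons. Against endothelial cells 8 of 15 were called lower, and 1, the cytokine signal inhibitor Socs3, higher. The Socs3 call was lost without library 1 (0.92) or library 4 (1.13). Among the 8, Jund lost its call without library 2 (-0.89), in DESeq2 (-0.98) and with no filter (-0.78). Fosb lost its call without library 3 (-0.96) and with no filter (-0.94), and Egr1 without library 2 (-0.95) and with no filter (-0.93). Against neurons, the Atf3 call was lost without the Schwann-like cluster (0.93) and with neuronal types scaled equally (0.81). Junb was at 1916, 1734, 1405, 972 and 1253 CPM in glia and 3749 ± 772 in endothelial cells (SD, n = 5). Jun was at 1339, 1525, 1105, 772 and 1314 CPM and Fos at 1064, 857, 702, 497 and 941, both within the endothelial range. The heat shock gene Hspa1a was among the 5 genes that varied most between libraries, at 151, 636, 61.4, 489 and 543 CPM. The tissue was dissociated before capture, and the part of this step in these levels was not tested.

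Markers of other cell types were low in glia but not at 0. All 13 neuronal markers were called lower than in neurons, and the list summed to 4.82, 15.3, 8.07, 9.18 and 16.8 UMIs per 10000 in glia, 4.63, 13.9, 8.30, 9.83 and 20.9 in endothelial cells and 190 to 227 in neurons. Library by library the glial and endothelial sums lay close together, and 0 of 7 tested neuronal markers were called between these classes. Single glia ranged from 1.18 to 91.2, so a few cells carried many more neuronal UMIs than the median of 9.08. The 10 endothelial markers summed to 0.0633 to 1.72 in glia, and the macrophage markers Csf1r, Aif1 and Cx3cr1 had 0 UMIs in glia. Cd68, a lysosomal protein, was the 1 macrophage marker of 10 that could be tested against neurons, and it was called higher.

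A few cells held the other foreign markers. Of the 688 glial UMIs of Dcn, a fibroblast proteoglycan, 676 (98.3%) came from 4 cells. In the same way 567 of 595 Hbb-bs UMIs came from 1 cell of library 3, 73 of 79 Cldn5 UMIs from 3 cells of library 3, and all 28 Cdk1 UMIs from 2 cells. Together these made up 8 cells, so the sums of Dcn, Hbb-bs and Cldn5 are values of a few cells. Without them, the log2 fold change of Dcn over neurons was -3.82, in place of 2.28, and that of Hbb-bs -1.15, in place of 3.15. The 8 cells were picked by their UMIs of Dcn, Hbb-bs, Cldn5 or Cdk1, and no neuron was left out. Both falls were thus built in, and the changed signs are no result about glia. The study also named a neuronal type for Dcn. Other fibroblast genes were spread more widely. Col1a2 was at 136, 125, 175, 134 and 219 CPM with a UMI in 84.7% of glia, and Lum at 45.4, 49.9, 47.2, 87.1 and 54.9 with a UMI in 57.8%, while Pdgfra had a UMI in 0.402%. Mki67, a marker of cycling cells, had a UMI in 2.01% of glia.

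The profile of glia was alike between libraries. Across the 10499 genes with 10 or more glial UMIs, the log2 CPM of glia correlated at 0.862 to 0.948 between 2 libraries, at 0.495 to 0.605 with neurons and at 0.572 to 0.745 with endothelial cells of the same library. These are correlations across genes, which share library and depth. The genes were picked by glial UMIs and the cells were typed on these same counts, so higher values among glia were built in. Endothelial sums were also shallower, at 58279 to 302305 UMIs against 346290 to 1442399 in glia. The genes that varied most between libraries at 100 CPM or more were Xist, Dcn, Hbb-bs, Hspa1a and Apod. Xist, the RNA of the inactive X chromosome, was at 0 in libraries 1 to 3 and at 608 and 684 CPM in libraries 4 and 5. Ddx3y of the Y chromosome was at 93.3, 119 and 117 CPM in libraries 1 to 3 and at 0 in the others. Apod, an apolipoprotein, was at 65.6, 62.4, 201, 503 and 245 CPM.

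Clustering the 249 glia among themselves gave 6 clusters of 53, 51, 50, 36, 34 and 25 cells. Genes that lead a cluster were used to form it and are given as a description. The 34 cells of cluster 5 were Schwann-like as a group, by markers of myelinating Schwann cells. Their myelin sums ran from 9.92 to 261 UMIs per 10000 with a median of 26.7, and 18 of the 34 lay at or below 35.2, the highest of the other glia. Ucn2, Pllp, Pou3f1, Fxyd6, Kcna1, Mlip, Fam178b, Fxyd3 and Ank3 were among the 10 genes with the largest folds there. Mbp, the basic protein of myelin, was at 1740, 1612, 1408, 1448 and 637 CPM in these cells of libraries 1 to 5, and at 521, 461, 388, 448 and 317 in the other glia. Ncmap and Pllp, both of the myelin membrane, were at 110 ± 55.4 and 113 ± 53.6 CPM in the cluster and 0.162 ± 0.363 and 1.13 ± 1.19 outside it (SD, n = 5). Pou3f1, the factor Oct6 of cells on the way to myelin, was at 378, 225, 396, 309 and 227 CPM against 2.43 to 23.2.

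The satellite program was lower in these 34 cells but present. Apoe was at 29525 ± 4511 CPM in them and 88027 ± 5884 in the other glia (SD, n = 5), and Fabp7 at 1868 ± 646 and 9038 ± 1244. Their satellite marker sum was 356 UMIs per 10000, against 888 to 1063 in the other clusters, and their myelin sum 52.1 against 11.8 to 15.9. Cholesterol enzymes were at 24.9 against 54.7 to 75.9, and interferon-induced genes at 70.9 against 101 to 243. Gfap, the glial intermediate filament, had a UMI in 55.9% of these cells and in 18.6% of the others. Mag, Prx and Cldn19, markers of mature myelin, had a UMI in 20.6%, 44.1% and 35.3% of these cells and in 0.465%, 3.72% and 1.86% of the others. Other myelin genes differed less. Egr2 was at 67.5 ± 29.7 CPM in the cluster and 59.4 ± 19.4 in the other glia (SD, n = 5), and Mal at 333 ± 33.2 and 250 ± 22.0. In the list of non-myelinating Schwann cells, which holds Gfap, Ngfr was higher in the cluster, at 42.1 ± 23.1 against 6.31 ± 2.44 CPM. Matn2 of that list was lower, at 135 ± 9.68 against 211 ± 16.2. The cluster held 2 of 19 glia in library 1, 11 of 80 in library 2, 13 of 53 in library 3, 3 of 75 in library 4 and 5 of 22 in library 5.

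**Figure D5:**
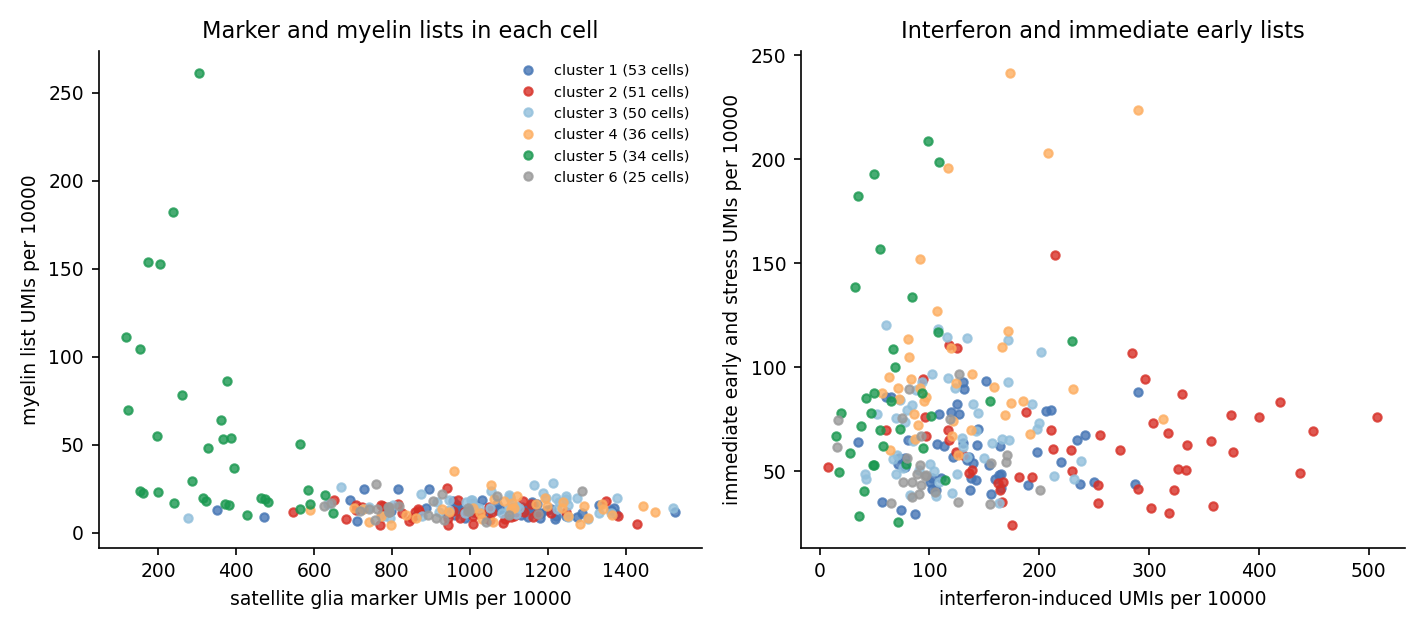
Each point is 1 of 249 glia, coloured by cluster. Left, satellite marker UMIs against myelin list UMIs, both per 10000, and right, interferon-induced against immediate early and stress UMIs. Cluster 5 sits to the left and holds the highest myelin values, though 18 of its 34 cells lie within the myelin range of the other glia, and cluster 2 reaches the highest interferon-induced values.

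The other 5 clusters differed by degree. Cluster 2 (51 cells, 31 of them from library 4) was led by Apod, Mx1, Rsad2 and Trf, and its interferon-induced genes summed to 243 UMIs per 10000. Mx1, an antiviral GTPase, had a UMI in 64.7% of its cells and 20.2% of the others, and Xist was also among its leading genes. Cluster 4 (36 cells, 19 from library 2) was led by Nr4a1, Ppp1r15a, Klf4 and Fosb, and its immediate early sum was 102 against 53.6 to 93.7 elsewhere. Cluster 3 (50 cells, 25 from library 2) was led by Tyrp1, Tchh and Gm19705, cluster 1 (53 cells) by Bcr, Crabp2 and Pcdh17, and cluster 6 (25 cells, 18 from library 3) by Klhl21, Dusp7 and Il4ra. Cluster 2 took 41.3% and 40.9% of the glia of libraries 4 and 5, which held Xist, and 3.75% to 15.8% of the other libraries. Cluster 6 took 34.0% of library 3 and 0% to 15.8% of the others. The part of the libraries in these clusters was not tested. Under 5 other settings of the clustering, the 1 cluster with the highest level of a myelin gene held 91.2% to 100% of the cells of cluster 5.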

How the data were processed

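Cells of lumbar DRG from 5 wild-type mice were measured by droplet RNA-seq. The authors deposited raw UMI counts per gene and cell, made with Cell Ranger on mm10 and filtered and clustered with Seurat per the submitters' processing notes, together with a text column (other) naming the type of each cell. Counts were used as deposited. The stated limit of 10% mitochondrial UMIs was exceeded by 8 glia, which were kept. No label says that the libraries came from separate mice by name, so the spread between them may be partly technical. Mitochondrial rows stayed in the totals. UMIs were summed per class and library. Glial sums ranged from 346290 to 1442399 UMIs. Sums were fitted in edgeR 4.0.16 (R 4.3.3, filterByExpr, TMM, quasi-likelihood, Benjamini-Hochberg), or scaled to CPM. The fits were checked on simulated counts in which far fewer genes changed than were called here, so that check does not cover so broad a difference. Both sums of a library were taken to come from 1 mouse, and their deviations correlated at 0.0568 to 0.256 with neurons and 0.0330 to 0.0966 with endothelial cells. Sign-flip tests were enumerated exactly. Clusters used scanpy 1.11.5 (2000 variable genes, 15 components, 15 neighbours, Leiden resolution 0.6). No doublet caller was run, and the study's methods name none. Library numbers are not the replicate numbers of the labels.

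Alternatives were DESeq2 1.42.0, no filter, the replicate block, each library left out, a 2-fold rule within each library, equal neuronal types, glia left out by neuronal UMIs, cluster or foreign markers (the last added after seeing the data), and other depths and cluster settings. The cells and lists were chosen with earlier results of these data known, and the interferon, interferon receptor and sex-linked lists after their values were seen. Named were all satellite markers, in other lists up to 4 called members with the highest glial CPM, the 10 most abundant genes, the 10 with the largest fold, the 5 most variable and the leading genes of clusters. Others were named after their values were seen. Coordinates are from GENCODE M21 and promoters from RefSeq. Some genes of the lists are counted in sums and calls but not reported here by name.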

Additional observations from a re-analysis of the deposited data

Results flagged for a closer look

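Of 202 quantities looked at over the 5 libraries, 17 had 1 library whose gap to the next exceeded Dixon's limit, and chance alone flags about 1 in 20 groups. In library 3 the summed UMIs per 10000 were high for red blood cell genes, at 8.16 against 0.0252 to 0.104, for endothelial genes, at 1.72 against 0.0633 to 0.404, and for cell cycle genes, at 1.37 against 0.894 to 1.02. Hbb-bs was at 510 CPM there against 2.52 to 9.01, Col4a1 at 108 against 68.1 to 75.6, and Cd59a at 251 against 219 to 226. Fibroblast genes were high in library 5, at 11.1 against 1.96 to 4.55, and Ell2 at 75.1 CPM against 42.9 to 50.7.

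Library 4 was high for Cxcl10 at 4259 CPM against 2177 to 2764, for Nsdhl at 281 against 189 to 202 and for Lum at 87.1 against 45.4 to 54.9. Library 1 was high for Gbp2 at 2216 CPM against 1187 to 1460 and for Dusp1 at 441 against 214 to 270, and low for the non-myelinating Schwann cell list at 2.40 against 2.67 to 2.76. Library 2 was low for the matrix list at 73.7 against 82.7 to 83.3, and high for Nr4a1 at 264 CPM against 98.8 to 146 and for Klf4 at 152 against 77.4 to 93.4.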

How the results depend on the processing

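Against neurons, 2589 genes were higher and 3931 lower with the replicate block, and against endothelial cells 882 and 868, so the pairing moved no count by 1.5 times. Leaving out 1 library gave 2548 to 2776 and 3721 to 4051 genes against neurons, and 839 to 1033 and 716 to 940 against endothelial cells. Requiring a 2-fold difference within each library left 1649 genes higher than in neurons. With no filter on low counts, 1950 were higher and 1438 lower than in endothelial cells. Without 1 library, the share of glia was 8.09% to 11.9%, the log2 UMI ratio -1.94 to -1.89 to neurons and 0.09 to 0.15 to endothelial cells, and the difference in genes at equal depth -244 to -210. Without the Schwann-like cluster the myelin list fell to 13.5 UMIs per 10000 from 19.0, and without the 8 cells with foreign markers the red blood cell list fell to 0.0686 from 1.68, the endothelial list to 0.0861 from 0.484, the fibroblast list to 2.10 from 4.74 and the cell cycle list to 0.793 from 1.04. Resolution 0.3 gave 3 clusters in place of 6. Over the named genes, 5797 refits of single genes stayed called or not called as before, 98 lost a call, 51 gained one, and 8 turned. These were Ncmap (-2.80) and Pllp (-0.33) without the Schwann-like cluster, Hba-a2 and Hbb-bs without library 3 (-2.99 to 3.72 and -1.32 to 4.19 over the libraries left out), Dcn (-3.82), Hba-a2 (-3.18) and Hbb-bs (-1.15) without the 8 cells, and Mlip (1.19) with equal neuronal types. Because the 8 cells were picked by glial UMIs of such genes, the turns and falls without them were built in. Causes were not tested beyond the cells left out. The smallest p of 5 libraries is 0.063, and genes low in the endothelial sums of 58279 to 302305 UMIs could not be compared at this depth.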
